A study of Mus musculus with 8 samples.

Results

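High-mobility group box 1 (HMGB1) and the innate receptors that sense it were followed across mammary tumors from mice treated topically with calcipotriol or with its solvent, EtOH. The set was a fixed list of 10 genes, of 55414 identifiers in the table, chosen by role: Hmgb1 itself, its receptor gene Ager, the toll-like receptor genes Tlr2, Tlr3, Tlr4 and Tlr7, the co-receptor genes Cd14 and Ly96, and the adaptor genes Myd88 and Ticam1. All 10 had enough counts to be tested, in a fit over 14458 genes. The tumors grew from the PyMt line, which is a single cell line derived from a breast tumor of the MMTV-PyMt transgenic mouse, where the mouse mammary tumor virus promoter drives the polyoma middle T oncogene. Cells were implanted orthotopically into the inguinal mammary fat pad of wild-type C57BL/6 female mice aged 6 to 8 weeks. The treated group of 4 tumors received 20 nmol calcipotriol, a vitamin D analog, over the tumor every 2 days from 2 days after implantation, and the control group of 4 tumors received EtOH on the same schedule. RNA was taken 24 hours after the last treatment, and the study's methods call the 4 tumors of a group biological replicates, which the labels do not tie to individual mice.

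HMGB1 is a chromatin protein that stressed, dying or activated cells release, and outside the cell it acts as an alarm signal. AGER (the receptor for advanced glycation end products) and TLR4, the latter with its co-receptors CD14 and MD-2 (Ly96), are among its receptors, and TLR2 has also been reported to sense it. The adaptors MyD88 and TRIF (Ticam1) carry the signal to NF-kB and interferon regulatory factors, while TLR3, TLR7 and TLR9 sit in endosomes and respond to nucleic acids. In mammary tumors these receptors are known from macrophages and other myeloid cells, from endothelium and from tumor cells, and bulk tumor RNA holds all of these at once. Fewer cells of a type and less RNA per cell cannot be told apart in such samples.

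Libraries held 20908411, 21912725, 25084713 and 23166550 counts in EtOH replicates 1 to 4, and 24673432, 22272066, 19685419 and 22383663 counts in calcipotriol replicates 1, 5, 6 and 7. Levels are CPM (counts scaled to library size) with libraries scaled by TMM, a normalization that assumes most genes do not differ. A gene is called when its edgeR Benjamini-Hochberg adjusted p over all tested genes is under 0.05 and its log2 fold change, calcipotriol against EtOH, is at least 1 in either direction.

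Several libraries stood apart within their groups. Calcipotriol replicate 1 kept macrophage marker levels closer to those of EtOH-treated tumors, with a summed level over the 12 macrophage markers of 2780 CPM against 1991, 1725 and 1557 CPM in calcipotriol replicates 5, 6 and 7. EtOH replicates 1 and 2 differed from EtOH replicates 3 and 4 in the 5 skeletal muscle markers, which summed to 1.12 and 0.925 CPM against 35.4 and 35.6 CPM, and in the 7 endothelial markers, which summed to 278 and 306 CPM against 139 and 133 CPM. The labels give the cell type as epithelial. The epithelial keratin genes Krt8 and Krt18 were abundant in every tumor, with means of 593 and 558 CPM with EtOH, but Epcam, Krt19 and Cldn4 were at 0 counts in EtOH replicates 1 and 2.

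Promoter sequences in the RefSeq table (GRCm38.p6) were found for 6 of the 10 members, namely Hmgb1, Ager, Tlr2, Tlr3, Myd88 and Ticam1. Tlr4, Tlr7, Cd14 and Ly96 had no entry. Shown are the ligand gene Hmgb1, Tlr9 as a toll-like receptor gene with counts in every control and 0 counts in 3 treated tumors, and Nfkbia as an NF-kB target and brake. Each runs 5′ to 3′ from 250 bases before the start of a RefSeq transcript to 30 bases after it. Capitals mark CCAAT in Hmgb1 (chr5:149053028-149053307, minus strand), the PU.1 core GAGGAAGT in Tlr9 (chr9:106222348-106222627, plus strand) and the NF-kB motif GGGANTTTC in Nfkbia (chr12:55492618-55492897, minus strand). The Tlr9 match and the second of the 2 Nfkbia matches read on the opposite strand, so the capitals there are the reverse complement.
Hmgb1: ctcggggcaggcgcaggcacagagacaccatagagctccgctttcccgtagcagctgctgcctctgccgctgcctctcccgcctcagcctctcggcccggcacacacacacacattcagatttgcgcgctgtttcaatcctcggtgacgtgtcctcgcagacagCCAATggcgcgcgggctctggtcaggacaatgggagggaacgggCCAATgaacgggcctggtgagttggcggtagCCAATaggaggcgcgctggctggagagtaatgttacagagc
Tlr9: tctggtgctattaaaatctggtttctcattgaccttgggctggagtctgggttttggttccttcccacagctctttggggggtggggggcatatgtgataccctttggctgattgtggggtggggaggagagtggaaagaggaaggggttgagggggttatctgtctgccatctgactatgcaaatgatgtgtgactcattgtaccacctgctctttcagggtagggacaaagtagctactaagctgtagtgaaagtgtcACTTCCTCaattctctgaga
Nfkbia: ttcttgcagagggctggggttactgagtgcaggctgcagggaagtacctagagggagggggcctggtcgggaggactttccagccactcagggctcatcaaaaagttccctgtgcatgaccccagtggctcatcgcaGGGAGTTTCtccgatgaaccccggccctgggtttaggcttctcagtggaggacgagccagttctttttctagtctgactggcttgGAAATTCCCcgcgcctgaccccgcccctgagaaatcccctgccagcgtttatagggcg
The Hmgb1 window belongs to the first of 2 transcript starts in the table and held 3 CCAAT matches, the first bases of which lay 86, 42 and 11 bases before that start. The window of the second start (chr5:149051567-149051866) held none, and the annotated gene runs further upstream than either window. Searched on both strands over 32851 promoter windows of 300 bases, CCAAT occurred in 37.4% and at least 3 times in 3.37%. PU.1 is a factor of myeloid cells, and its core occurred in 3.2% of windows. It matched none of the 6 members with a promoter. GGGANTTTC occurred in 1.11% of windows, and among the 6 members with a promoter it matched Tlr3 only, 211 bases before the start. The interferon-stimulated element GAAANNGAA occurred in 8.56% of windows and matched Myd88 only among these members, 40 bases before the start. No match of one motif lay over a match of another in the windows shown. These matches describe letters in a window and are not sites shown to be bound.

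None of the 10 members was called by edgeR, in a comparison where 292 of 14458 genes, or 2.02%, were (1.07% higher and 0.948% lower). At an adjusted p under 0.05 without the fold threshold none of the 10 passed either, against 2.74% of all genes. At an unadjusted p under 0.05, 3 of the 10 passed (Tlr2, Tlr7 and Cd14, each with a negative log2 fold change), against 18.4% of all genes tested. By the direction of the log2 fold change, 5 members were positive and 5 negative, and their median was -0.06 against 0.02 over all genes tested. In 2 members, Tlr7 and Cd14, every calcipotriol-treated tumor lay below every EtOH-treated tumor, which also held for 6.16% of all genes tested. The 5 members with a negative log2 fold change were Hmgb1, Tlr2, Tlr7, Cd14 and Ticam1, none past the adjusted test in edgeR. DESeq2 gave adjusted p values under 0.05 for Tlr2, Tlr7 and Cd14, but the share of all genes under that cutoff alone was not counted for DESeq2. With both thresholds DESeq2 called Tlr7 only among the members, and 4.47% of all genes.

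**Figure D1:**
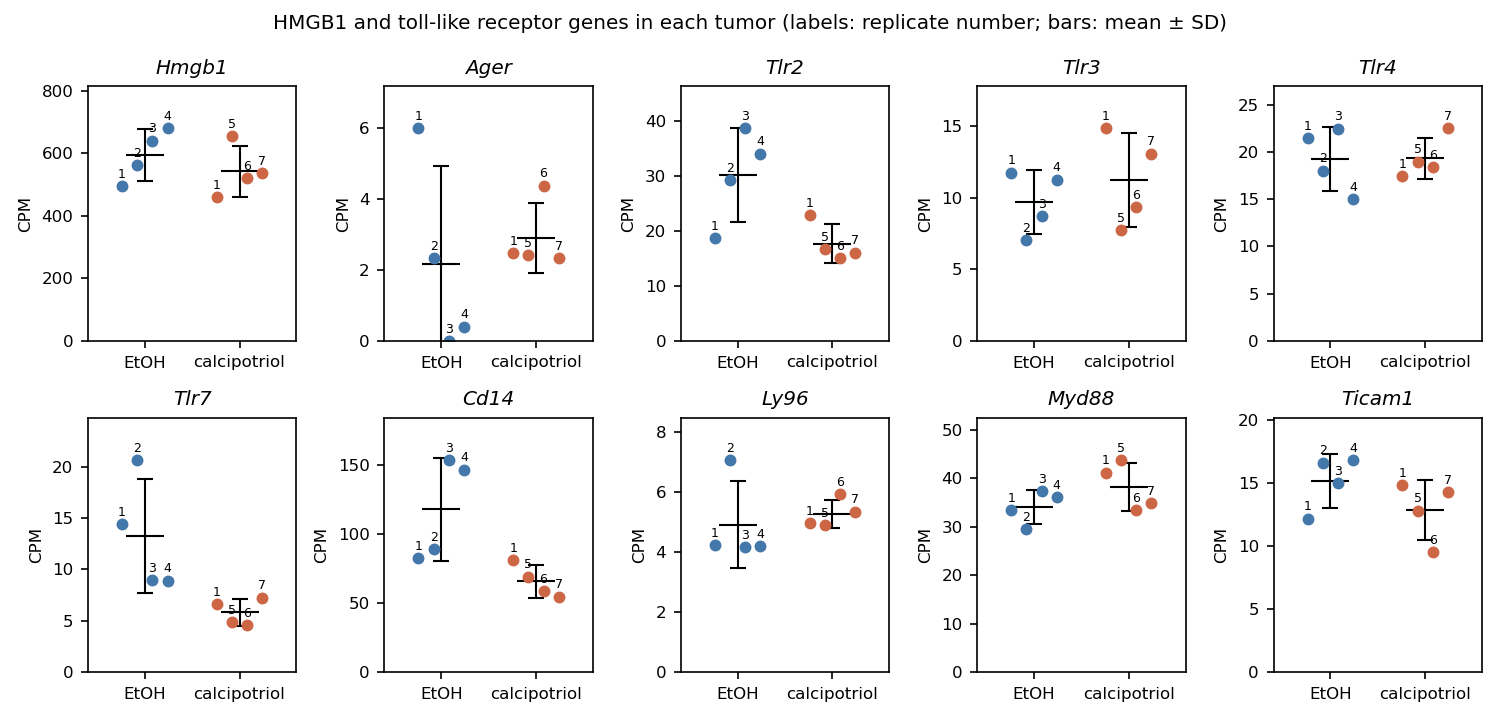
CPM (vertical axis, from 0) of the 10 members in each tumor, with EtOH-treated tumors in blue and calcipotriol-treated tumors in orange, replicate numbers beside the points and bars for mean ± SD (n = 4 each; the lower bar of Ager with EtOH is cut at 0). Tlr7 and Cd14 are the 2 members whose groups do not overlap, and the groups of Hmgb1 and Tlr4 lie over each other.

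The ligand gene Hmgb1 (ENSMUSG00000066551, GRCm38 chr5:149046702-149184489, minus strand) was the most abundant member. Its level was 496, 561, 640 and 679 CPM in EtOH replicates 1 to 4, and 460, 655, 521 and 536 CPM in calcipotriol replicates 1, 5, 6 and 7. The groups overlapped over most of their range, and the lowest tumor was calcipotriol replicate 1. The mean was 594 ± 81.9 CPM with EtOH and 543 ± 81.5 CPM with calcipotriol (SD, n = 4 each), a log2 fold change of -0.13 (SE 0.15, 95% interval -0.47 to 0.21, edgeR adjusted p = 0.707). The interval held no change of 1 log2 unit in either direction, and it concerns RNA, not released protein.

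Hmgb1 has many pseudogene copies in the mouse genome that can take or give reads. The table listed 110 pseudogenes that aligned to at least 50% of its reading frame at 90% identity or more, of which 77 had no count in any tumor. The copies together held between 1.31% and 2.78% of the reads assigned to Hmgb1 and copies in a tumor. With the copies added to Hmgb1 the log2 fold change was -0.12. On the opposite strand Uspl1 overlaps Hmgb1 by 140 bases, and the strand setting of the counting is not given in the sources used here.

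Its relatives Hmgb2 and Hmgb3, which also bend DNA in chromatin, were tested and not called. Hmgb2 averaged 222 ± 42.6 CPM with EtOH and 179 ± 29.1 CPM with calcipotriol (log2 fold change -0.31, SE 0.17, adjusted p = 0.365). The Hmgb3 means were 74.0 and 69.6 CPM (log2 fold change -0.09, adjusted p = 0.798). Hmgb4, a gene known from the testis, was not tested, with 0 counts in 7 of the 8 tumors.

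Ager was the least abundant member and the one with the widest interval. It had 123, 48, 0 and 9 counts in EtOH replicates 1 to 4, and 62, 53, 91 and 55 counts in the calcipotriol-treated tumors. EtOH replicate 1 was the highest of all 8 tumors and EtOH replicate 3 the lowest, so the EtOH-treated group spanned the treated one. The log2 fold change was 0.41 (SE 1.03, 95% interval -1.87 to 2.70, adjusted p = 0.874), and it was -0.52 without EtOH replicates 3 and 4, 3.86 (adjusted p = 0.105) without EtOH replicates 1 and 2 and 2.44 with limma-voom (adjusted p = 0.289). A count of 0 in EtOH replicate 3 allows up to 0.12 CPM at its depth of 25084713 counts, and this limit covers counting error only.

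Tlr4 (GRCm38 chr4:66827584-66930284, plus strand), the receptor for lipopolysaccharide and one of the receptors of HMGB1, had nearly equal group means. Levels were 21.5, 18.01, 22.4 and 15.00 CPM with EtOH and 17.4, 19.0, 18.4 and 22.5 CPM with calcipotriol. The highest tumor was treated and the lowest was a control, and the ranges overlapped, with the control range reaching lower. Means were 19.2 ± 3.40 and 19.3 ± 2.19 CPM, with a log2 fold change of 0.01 (SE 0.17, 95% interval -0.38 to 0.39, adjusted p = 0.987). Its sign turned in 3 of the 8 fits with a tumor left out, with values between -0.10 and 0.09.

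Tlr2, which pairs with TLR1 or TLR6 to sense lipoproteins, had its highest levels in controls. The controls held 18.8, 29.3, 38.7 and 34.1 CPM and the treated tumors 22.9, 16.8, 15.1 and 16.1 CPM. Only EtOH replicate 1 and calcipotriol replicate 1 crossed between the groups. The means were 30.2 ± 8.55 and 17.7 ± 3.52 CPM (log2 fold change -0.77, SE 0.23, 95% interval -1.28 to -0.26, adjusted p = 0.107), so Tlr2 did not pass the edgeR test, while DESeq2 gave an adjusted p of 0.037 at a fold short of the threshold. Without calcipotriol replicate 1 it was -0.92 (adjusted p = 0.0472), short of the fold threshold. The value depended on which controls were kept, being -1.04 (adjusted p = 0.0463) without EtOH replicates 1 and 2, a fit that called 1.14% of genes, and -0.44 (adjusted p = 0.323) without EtOH replicates 3 and 4, a fit that called 3.9%.

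Neither endosomal receptor gene of the set, Tlr3 or Tlr7, was called. Tlr3, a sensor of double-stranded RNA, ranged from 7.06 to 11.8 CPM with EtOH and from 7.76 to 14.9 CPM with calcipotriol, with overlapping groups (log2 fold change 0.22, adjusted p = 0.722). Tlr7, a sensor of single-stranded RNA, was at 14.4, 20.6, 8.99 and 8.91 CPM with EtOH and at 6.64, 4.89, 4.57 and 7.25 CPM with calcipotriol. All treated tumors lay below all controls, the controls themselves splitting into the higher replicates 1 and 2 and the lower replicates 3 and 4. Means were 13.2 ± 5.56 and 5.84 ± 1.31 CPM, a log2 fold change of -1.18 (SE 0.31, 95% interval -1.88 to -0.48) with an edgeR adjusted p of 0.0778, which misses the threshold. DESeq2 gave an adjusted p of 0.0115 for the same fold and called Tlr7, in a fit that called 4.47% of genes. Tlr7 was at -1.58 (adjusted p = 0.0168) without EtOH replicates 3 and 4, and at -0.62 (adjusted p = 0.277) without EtOH replicates 1 and 2.

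Neither co-receptor gene, Cd14 or Ly96, was called. CD14 is a surface protein of monocytes and macrophages that hands ligands to TLR4, and its gene held 82.4, 88.9, 154 and 147 CPM with EtOH against 81.4, 69.3, 58.6 and 54.8 CPM with calcipotriol. The groups touched almost exactly at EtOH replicate 1 and calcipotriol replicate 1. Cd14 means were 118 ± 37.4 and 66.0 ± 12.0 CPM (log2 fold change -0.84, SE 0.23, 95% interval -1.33 to -0.34, edgeR adjusted p = 0.0802). The adjusted p was 0.00999 with DESeq2 and 0.0321 in edgeR with no filter on low counts, both at a fold short of the threshold. As with Tlr2, its size depended on the controls kept, and it was -1.18 (adjusted p = 0.022) without EtOH replicates 1 and 2 and -0.38 (adjusted p = 0.246) without EtOH replicates 3 and 4. Ly96, which encodes the MD-2 subunit that holds the lipid in the TLR4 complex, was between 4.17 and 7.06 CPM with EtOH and between 4.89 and 5.91 CPM with calcipotriol (log2 fold change 0.10, SE 0.28, adjusted p = 0.885).

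The adaptor genes differed little between groups. Myd88, the adaptor of all the toll-like receptors here except TLR3, was at 33.5, 29.5, 37.4 and 36.1 CPM with EtOH and 41.1, 43.8, 33.4 and 34.8 CPM with calcipotriol. Calcipotriol replicates 1 and 5 were above every control and the other two were within their range. The log2 fold change was 0.17 (SE 0.14, 95% interval -0.15 to 0.48, adjusted p = 0.584), and Acaa1a, with a mean of 1972 counts against 818 for Myd88, overlaps it on the opposite strand by 1736 bases. Ticam1, the adaptor of TLR3 and of internalized TLR4, ranged from 12.2 to 16.8 CPM with EtOH and from 9.52 to 14.8 CPM with calcipotriol (log2 fold change -0.24, SE 0.20, adjusted p = 0.57).

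Tested on their own by a two-sided exact permutation test of the mean log2(CPM + 0.5) over 70 arrangements, Tlr7 and Cd14 each gave p = 0.0286, the smallest that 4 tumors against 4 allow. Any gene whose groups do not overlap reaches this p, so for Tlr7 and Cd14 it restates that separation. Groups did not overlap, in either direction, for 12.5% of all genes tested. Tlr2 gave an exact p of 0.0571, Hmgb1 of 0.429 and Tlr4 of 0.857. These were among 10 such tests, one per member, and are not adjusted for their number. Scaled by library totals without TMM, 1 of the 10 was under 0.05, namely Tlr7, and Cd14 gave an exact p of 0.0571.

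Levels of different genes were compared per kilobase of annotated exon. In EtOH-treated tumors the order was Hmgb1 at 118 CPM per kilobase, Cd14 at 68.0, Myd88 at 13.2, Tlr2 at 10.03, Ticam1 at 5.06, Ly96 at 4.81, Tlr4 at 3.46, Tlr7 at 3.24, Tlr3 at 1.87 and Ager at 1.02 CPM per kilobase. Hmgb1 and Cd14 stood clear of each other and of the rest. Neighbors whose ranges over the 4 controls overlapped were Myd88 and Tlr2, Ticam1 and Ly96, Tlr4 and Tlr7, Tlr7 and Tlr3, and Tlr3 and Ager. In calcipotriol-treated tumors Hmgb1, Cd14, Myd88 and Tlr2 kept the first 4 places, at 108, 38.1, 14.9 and 5.87 CPM per kilobase, while Tlr7 was next to last at 1.43 CPM per kilobase. Neighbors whose ranges overlapped there were Tlr2 and Ly96, Ly96 and Ticam1, Ticam1 and Tlr4, Tlr3 and Tlr7, and Tlr7 and Ager. The exon length counts every annotated isoform, so a gene with long alternative exons reads low on this scale.

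**Figure D2:**
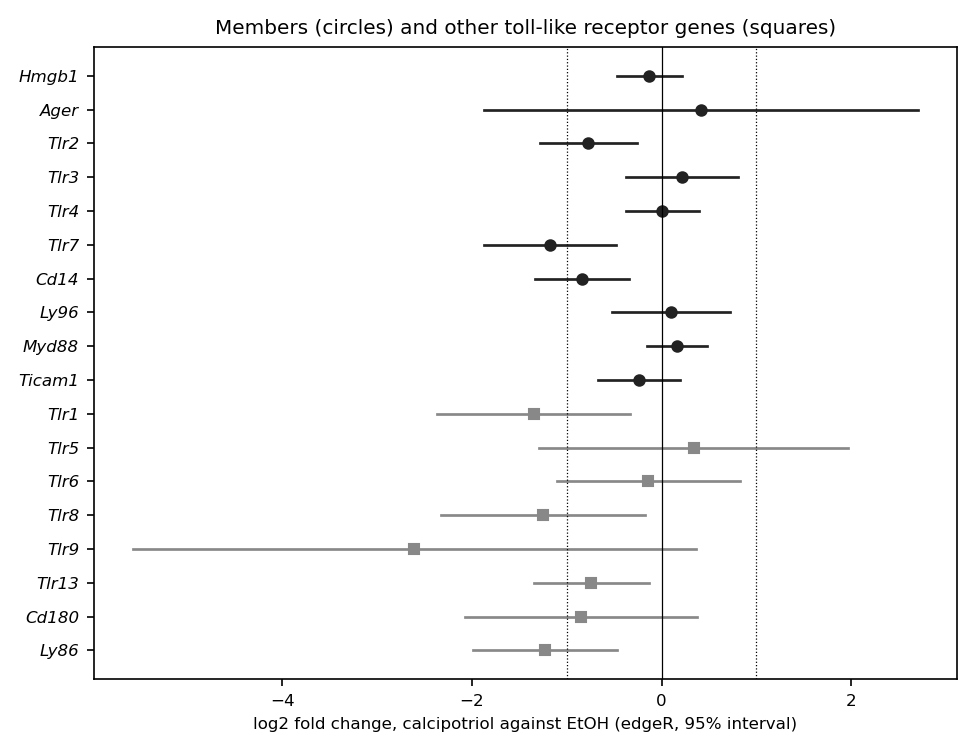
Log2 fold change with its 95% interval (horizontal axis, calcipotriol against EtOH, edgeR, 4 tumors each) for the 10 members (black circles) and the 8 tested genes of the other toll-like receptors and relatives (gray squares), with dotted lines at -1 and 1. The intervals of Tlr2, Tlr7 and Cd14 lie below 0, those of Hmgb1 and Tlr4 are narrow and span 0, and those of Ager and Tlr9 are the widest.

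The other receptors of the family were read from the same fit. Of 10 genes (Tlr1, Tlr5, Tlr6, Tlr8, Tlr9, Tlr11, Tlr12, Tlr13, Cd180 and Ly86), 8 were tested and none was called, 7 had a negative log2 fold change and their median was -1.04 against 0.02 over all genes tested. Without calcipotriol replicate 1 the median was -1.58 with 3 called lower, and without EtOH replicates 3 and 4 it was -0.57 over 9 tested genes with none called. Tlr1, the partner of TLR2, averaged 9.23 ± 4.53 CPM with EtOH and 3.62 ± 2.11 CPM with calcipotriol (log2 fold change -1.35, SE 0.46, adjusted p = 0.151; -0.76 without EtOH replicates 3 and 4), whereas its other partner Tlr6 averaged 4.66 and 4.22 CPM (log2 fold change -0.14, or 0.48 without EtOH replicates 1 and 2). The mouse RNA sensor Tlr13 averaged 19.3 ± 4.41 and 11.5 ± 4.08 CPM (log2 fold change -0.74, adjusted p = 0.184). Ly86, the MD-1 partner of CD180, was at 48.7, 59.0, 55.8 and 56.2 CPM with EtOH and at 46.1, 15.8, 18.2 and 13.3 CPM with calcipotriol. Calcipotriol replicate 1 thus sat beside the controls while the other 3 treated tumors were far below, and the log2 fold change was -1.23 (SE 0.34, edgeR adjusted p = 0.0874). DESeq2 (adjusted p = 0.00777) and limma-voom (adjusted p = 0.0374) called Ly86, as did edgeR with no filter on low counts (adjusted p = 0.0285).

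Tlr9, the endosomal sensor of unmethylated CpG DNA whose promoter is shown above, had the same split. It had 68, 114, 67 and 75 counts in the 4 controls, 60 counts in calcipotriol replicate 1, and 0 counts in calcipotriol replicates 5, 6 and 7. The log2 fold change over all tumors was -2.61 with an SE of 1.34 (adjusted p = 0.332), and limma-voom gave -5.61 (adjusted p = 0.0538). Without calcipotriol replicate 1 Tlr9 was called lower (edgeR adjusted p = 0.00207), and its fitted log2 fold change of -9.36 there depends on the prior count, since the 3 treated tumors left were all at 0. Zero counts allow up to 0.135, 0.152 and 0.134 CPM in those 3 libraries, against 2.71 CPM in the lowest control. As for Ager, these limits cover counting error only. Tlr11 was at 0 counts in all 8 tumors, and Tlr12 was too low to test.

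Unc93b1, the chaperone that brings TLR3, TLR7 and TLR9 to endosomes, was at 116, 114, 120 and 122 CPM in the controls and at 95.1, 35.1, 42.3 and 41.4 CPM in the treated tumors. The 4 controls were nearly equal, and again calcipotriol replicate 1 was the nearest to them. The log2 fold change was -1.14 (SE 0.28), with an edgeR adjusted p of 0.0595, just over the threshold, and it was called by DESeq2 (adjusted p = 0.00181) and by limma-voom (adjusted p = 0.0297), which called 1.9% of genes. With edgeR it was also called with no filter on low counts (adjusted p = 0.0132) and with at least 10 counts in every tumor (adjusted p = 0.0482). Of the 8 accessory and trafficking genes tested, none was called, and their median was -0.02. Cnpy3, a folding factor for toll-like receptors, averaged 56.4 and 48.5 CPM (log2 fold change -0.22, adjusted p = 0.447). The scavenger receptor gene Cd36 averaged 5.83 and 2.94 CPM (log2 fold change -0.99, adjusted p = 0.298), and its log2 fold change was -1.55 (adjusted p = 0.0655) without EtOH replicates 1 and 2 and -0.06 (adjusted p = 0.959) without EtOH replicates 3 and 4.

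**Figure D3:**
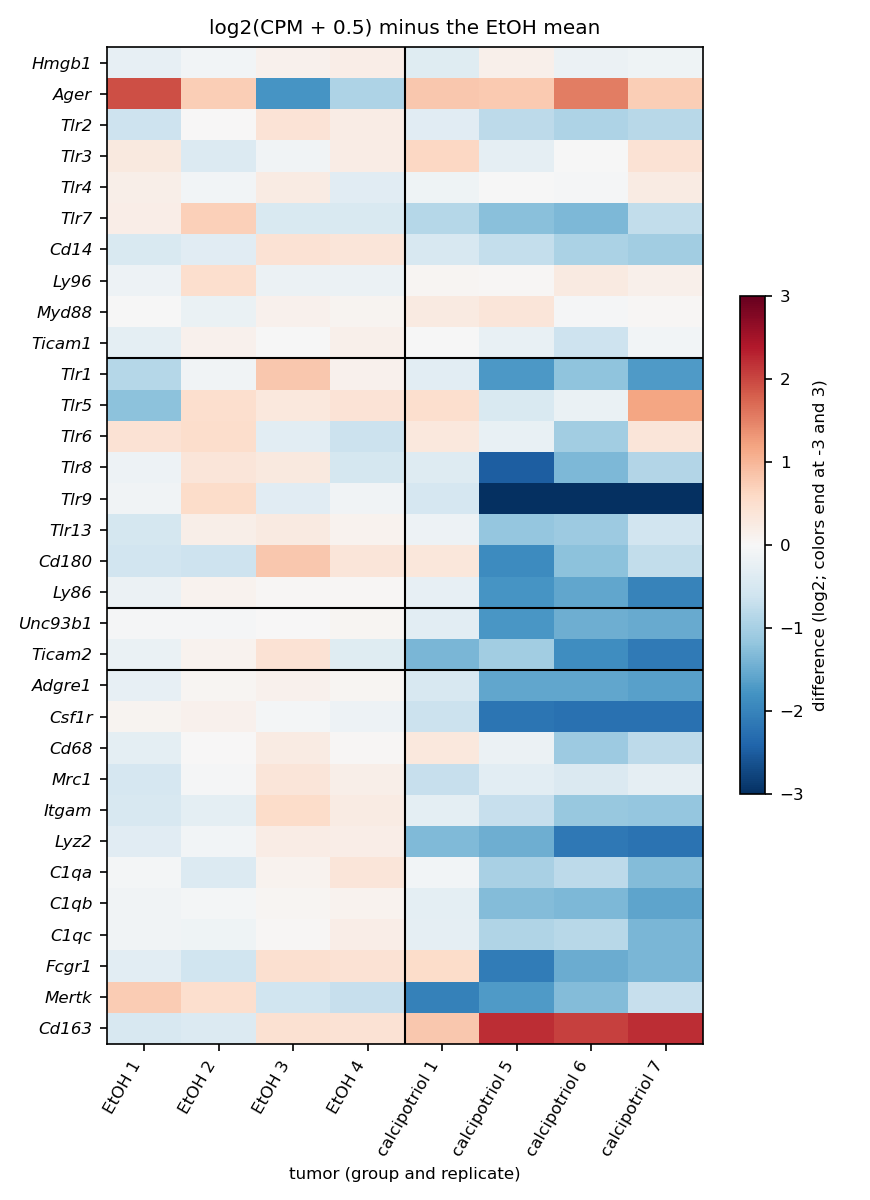
Log2(CPM + 0.5) minus the mean of the 4 EtOH-treated tumors (color, red above and blue below, ending at -3 and 3) for each gene (rows) in each tumor (columns). From the top, blocks hold the 10 members, the other toll-like receptor genes tested, Unc93b1 with Ticam2, and the 12 macrophage markers; calcipotriol replicate 1 is paler than the other 3 treated tumors in Tlr9, Ly86, Unc93b1 and Csf1r, while the rows of Hmgb1 and Tlr4 stay near white.

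The summed level of macrophage markers was also lower in every treated tumor than in any control. Of the 12 macrophage markers, 3 fell past both thresholds (Adgre1, Csf1r and Lyz2), 1 rose (Cd163) and 8 were not called. Their summed level was 3664, 3937, 4780 and 4812 CPM in the controls and 2780, 1991, 1725 and 1557 CPM in the treated tumors, and none of the 12 was at 0. The most abundant, Lyz2, encoding lysozyme, averaged 1714 ± 298 CPM with EtOH and 511 ± 159 CPM with calcipotriol (log2 fold change -1.75, SE 0.23, adjusted p = 0.00683). Cd163, a scavenger receptor of resident-type macrophages, averaged 30.6 and 112 CPM (log2 fold change 1.87, SE 0.33, adjusted p = 0.0192). Without calcipotriol replicate 1, 8 of the macrophage markers were called lower and 1 higher. Without EtOH replicates 1 and 2 the only one called was Lyz2, lower, and without EtOH replicates 3 and 4 Lyz2 and Mertk were called lower and Cd163 higher. The summed level in the 3 treated tumors other than calcipotriol replicate 1 averaged 1758 CPM. The part of these cells in the levels of Tlr2, Tlr7, Cd14, Ly86 and Unc93b1 was not tested.

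Set against this sum, the members read differently. Tlr4 came to 5.85, 4.57, 4.69 and 3.12 CPM per 1000 CPM of macrophage markers in the controls and to 6.27, 9.52, 10.7 and 14.4 in the treated tumors, all above the controls. Cd14 came to 22.5 to 32.1 per 1000 CPM of these markers with EtOH and 29.3 to 35.2 with calcipotriol, and Tlr7 to 1.85 to 5.24 and 2.39 to 4.66, both with overlapping groups. Tlr2, which also had a lower mean CPM after treatment, came to 5.13 to 8.1 with EtOH and 8.23 to 10.3 with calcipotriol, without overlap. The groups overlapped for Ager and Ly96 as well. On this scale all treated tumors were above all controls for 6 of the 10 members, namely Hmgb1, Tlr2, Tlr3, Tlr4, Myd88 and Ticam1. The same held for 60.8% of all genes tested, because the denominator itself was lower after treatment.

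Other cell types were read from fixed marker lists in the same way. All 7 endothelial markers had a negative log2 fold change and 3 fell past both thresholds (Pecam1, Kdr and Robo4); the most abundant, Cdh5, averaged 81.4 and 29.5 CPM, and the sum was 278, 306, 139 and 133 CPM with EtOH and 108, 51.1, 76.2 and 80.6 CPM with calcipotriol. The endothelial markers called lower were 1 (Kdr) without EtOH replicates 1 and 2, a fit in which their median was -0.70 against -1.36 as reported, 6 without EtOH replicates 3 and 4, and 4 without calcipotriol replicate 1. Of 7 erythroid markers 5 fell, led in abundance by Hbb-bs, and the sum averaged 4602 ± 1293 CPM with EtOH and 599 ± 164 CPM with calcipotriol. None of the 9 neutrophil markers was called, 7 of them were tested, the most abundant was S100a9 and their sum averaged 68.8 ± 41.4 and 79.8 ± 53.7 CPM. The control sum averaged 33.2 CPM without EtOH replicates 1 and 2 and 104 CPM without EtOH replicates 3 and 4, a fit that called Csf3r lower. Dendritic cell markers, of which 4 of 7 were tested and none called, summed to 7.24 and 6.70 CPM on average and were led by Zbtb46. Of 8 T cell markers, led by Cd2, 4 were tested and none called, with positive log2 fold changes in all 4 and a median of 2.06. Without calcipotriol replicate 1 the median of these markers was 1.22, with 3 positive and 1 negative. It was 3.15 over 6 tested markers without EtOH replicates 1 and 2. The T cell marker sum averaged 1.76 CPM with EtOH and was 13.8, 5.71, 3.46 and 3.26 CPM in calcipotriol replicates 1, 5, 6 and 7, which averaged 6.55 CPM, or 4.14 CPM without calcipotriol replicate 1. None of the 5 B cell markers, led by Cd79b, had enough counts to be tested, and they summed to 1.78 and 0.773 CPM. The 6 fibroblast markers, led by Col3a1, averaged 5137 and 4794 CPM in sum with none called and a median log2 fold change of 0.06. That median was -0.38 without EtOH replicates 1 and 2, with Pdgfra called higher, and 1.01 without EtOH replicates 3 and 4, with Lum called higher, and Dcn was called higher without calcipotriol replicate 1. The 6 epithelial markers, led by Krt8, averaged 1167 and 694 CPM in sum with none called, although Krt18 had an adjusted p of 0.0162 at a log2 fold change of -0.93. By gene, 4 of these 6 had a positive log2 fold change and their median was 0.42, so the sum and the median differ in sign, and the median was -0.32 without EtOH replicates 1 and 2, 5.16 without EtOH replicates 3 and 4 and 1.67 with limma-voom. Krt18 was called lower without calcipotriol replicate 1 and without EtOH replicates 3 and 4, a fit that also called Krt19 higher. Of 7 keratinocyte markers 4 were tested, with 2 positive and 2 negative log2 fold changes and a median of -0.04, and their sum ranged from 5.72 to 63.6 CPM in the treated tumors. The median of these markers was 0.29 without calcipotriol replicate 1, 1.03 without EtOH replicates 3 and 4 and -0.41 without EtOH replicates 1 and 2. The most abundant, Krt14, rose from 0.686 to 25.4 CPM (adjusted p = 0.0336), but it was not called by limma-voom (adjusted p = 0.446), without EtOH replicates 1 and 2 (adjusted p = 0.109) or without EtOH replicates 3 and 4 (adjusted p = 0.0578). Of 5 adipocyte markers 3 were tested, with 1 positive and 2 negative log2 fold changes and a median of -0.21. The adipocyte median was 0.64 with limma-voom, 7.45 without EtOH replicates 3 and 4 and, over 4 tested, -1.18 without EtOH replicates 1 and 2. Fabp4, the most abundant adipocyte marker, fell from 30.4 to 13.4 CPM (adjusted p = 0.0082). The skeletal muscle markers, led by Acta1, had none called, with all 5 log2 fold changes negative as reported and all 5 positive without EtOH replicates 3 and 4. The part of these cell types in the members' values was not tested.

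Beyond the 10 members, 100 genes of the pathway were listed by role, of which 93 were tested. None was higher and 2 were lower past both thresholds, or 2.15%. Of all genes tested 2.02% were called in either direction, 1.07% higher and 0.948% lower. Their log2 fold changes were positive in 47 and negative in 46, with a median of 0.01.

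**Figure D4:**
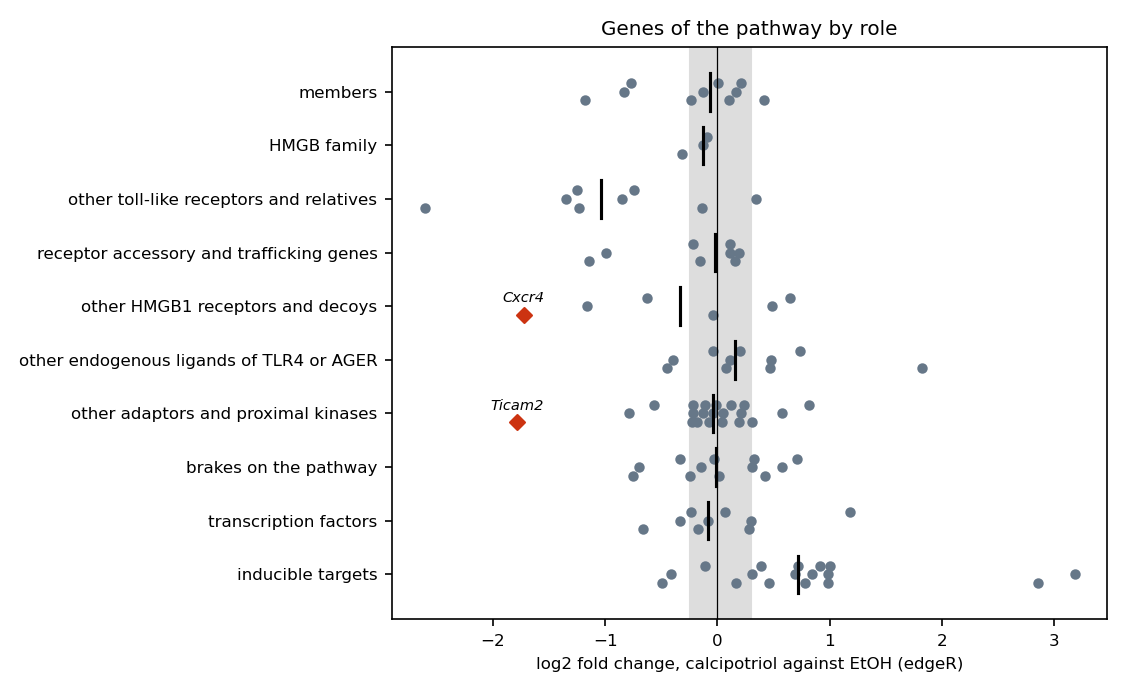
Log2 fold change (horizontal axis, calcipotriol against EtOH, edgeR) of every tested gene of each role list (rows), with a black bar at the list's median, red diamonds for genes past both thresholds and a gray band for the range between the quartiles of all genes tested (-0.24 to 0.30). Cxcr4 and Ticam2 are the 2 called genes, the other toll-like receptor genes lie mostly left of the band and the inducible targets mostly right of it.

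Of the other HMGB1 receptors and decoys, 6 of 7 were tested and 1 fell. Cxcr4, the chemokine receptor that binds HMGB1 joined to CXCL12, was at 67.3, 66.6, 23.8 and 30.9 CPM with EtOH and at 23.4, 9.68, 12.3 and 11.6 CPM with calcipotriol. The controls split by replicate, and calcipotriol replicate 1 came within 1 CPM of the lowest control. Its log2 fold change was -1.73 (SE 0.39, adjusted p = 0.0439), -0.94 (adjusted p = 0.166) without EtOH replicates 1 and 2 and -2.23 (adjusted p = 0.00744) without EtOH replicates 3 and 4. Limma-voom did not call it (adjusted p = 0.0623), nor did 5 of the 8 fits with a tumor left out, those without EtOH replicate 1 or 2 or calcipotriol replicate 5, 6 or 7 (adjusted p between 0.0966 and 0.136). The ligand gene Cxcl12 had means of 176 and 171 CPM (log2 fold change -0.04). Trem1, an amplifier of toll-like receptor signals on myeloid cells, averaged 20.1 ± 11.1 and 8.97 ± 1.52 CPM (log2 fold change -1.16, SE 0.36, adjusted p = 0.123). The Trem1 value was -1.71 (adjusted p = 0.0118) without EtOH replicates 1 and 2 and -0.25 (adjusted p = 0.59) without EtOH replicates 3 and 4, and DESeq2 called it (adjusted p = 0.0321).

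Among 21 other adaptors and proximal kinases, all tested, Ticam2 fell and 20 were not called. Ticam2 encodes TRAM, the bridge between TLR4 and TRIF, and was at 6.03, 7.59, 9.64 and 5.29 CPM with EtOH and at 2.38, 3.11, 1.54 and 1.23 CPM with calcipotriol, with no overlap. The log2 fold change was -1.79 (SE 0.37, adjusted p = 0.0346). Ticam2 lies within 14299 bases shared with Tmed7 on the same strand, and with a mean of 103 counts against 3936 for Tmed7 the division of reads between them is uncertain. The call was lost (adjusted p between 0.0677 and 0.113) in the fits without EtOH replicate 1, 2 or 3 or calcipotriol replicate 6 or 7, and in those without EtOH replicates 1 and 2 (adjusted p = 0.084) or EtOH replicates 3 and 4 (adjusted p = 0.0601). Chuk, encoding the IKK-alpha kinase, was at 33.4 ± 6.75 and 58.8 ± 10.5 CPM, with every treated tumor above every control and an adjusted p of 0.0419 at a log2 fold change of 0.82, short of the fold threshold. Without EtOH replicates 3 and 4 Chuk was called (log2 fold change 1.08, adjusted p = 0.0175), and without EtOH replicates 1 and 2 its log2 fold change was 0.60 (adjusted p = 0.12). Ikbkg, the scaffold of the same kinase complex, averaged 30.6 and 45.7 CPM (log2 fold change 0.58, SE 0.16, adjusted p = 0.0874), but G6pdx overlaps it on the opposite strand.

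Of the 12 brakes on the pathway none was called, with a median of -0.01. Nfkbia, the NF-kB inhibitor whose promoter is shown above, was at 98.7, 89.5, 108 and 117 CPM with EtOH and at 124, 211, 175 and 168 CPM with calcipotriol. All treated tumors were above all controls, which held for 6.32% of genes tested, and the adjusted p was 0.051 at a log2 fold change of 0.71 (SE 0.17). Tnfaip3, encoding the A20 deubiquitinase, averaged 31.6 and 39.5 CPM (log2 fold change 0.32, adjusted p = 0.255). Sigirr, a decoy-like inhibitor of these receptors, averaged 14.6 and 8.70 CPM (log2 fold change -0.75, adjusted p = 0.196).

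None of the 9 transcription factor genes was called. The NF-kB subunit genes Nfkb2 (log2 fold change -0.33, adjusted p = 0.278), Nfkb1 (-0.08, adjusted p = 0.759) and Rela (-0.17, adjusted p = 0.474) had small differences. Irf7, itself an interferon target, averaged 19.3 and 43.6 CPM (log2 fold change 1.18, adjusted p = 0.236), a mean that includes calcipotriol replicate 1 at 103 CPM, without which the log2 fold change was 0.31. Irf5, a factor downstream of MyD88, averaged 26.2 and 16.6 CPM (log2 fold change -0.66, adjusted p = 0.4), and its log2 fold change was -0.10 without EtOH replicates 3 and 4 and -1.06 (adjusted p = 0.201) without EtOH replicates 1 and 2.

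Of 20 inducible targets, 17 were tested, none was called, 14 had a positive log2 fold change and the median was 0.72 against 0.02 over all genes tested. Without calcipotriol replicate 1 the median was 0.30, 12 were positive and 2 were called higher (Il10 and Nfkbiz). Log2 fold changes that turned negative in that fit were those of Cxcl10 (1.002 to -0.21), Ccl5 (0.92 to -1.22) and Nos2 (0.72 to -0.10), none of them called. Without EtOH replicates 3 and 4 the median was 0.84 over 18 tested genes, with Cxcl1 and Il24 called higher and Ifnb1 called lower. Nfkbiz, an early NF-kB target that encodes a nuclear IkB protein, was at 68.2, 42.1, 50.8 and 58.4 CPM with EtOH and at 83.2, 125, 108 and 119 CPM with calcipotriol. Every treated tumor was above every control, and the adjusted p was 0.0201 at a log2 fold change of 0.99 (SE 0.18), just under the fold threshold, and it was called without EtOH replicate 1, EtOH replicate 4 or calcipotriol replicate 1. Ptgs2, encoding cyclooxygenase, averaged 324 ± 80.1 and 523 ± 149 CPM (log2 fold change 0.69, adjusted p = 0.158). Il24 was at 0.292, 0, 0.203 and 1.15 CPM with EtOH and at 2.07, 5.53, 3.99 and 3.56 CPM with calcipotriol, without overlap (log2 fold change 3.18, SE 0.89, edgeR adjusted p = 0.088). Il24 was called by DESeq2 (adjusted p = 0.00282), with no filter on low counts (adjusted p = 0.0466), without EtOH replicate 4 (adjusted p = 0.0371) and without EtOH replicates 3 and 4 (log2 fold change 4.64, adjusted p = 0.0353). It was not called without EtOH replicates 1 and 2 (log2 fold change 2.49, adjusted p = 0.121), by limma-voom (log2 fold change 4.01, adjusted p = 0.0828) or in the other 7 fits with a tumor left out (adjusted p between 0.061 and 0.223). Il1b averaged 27.0 and 19.2 CPM, Tnf 2.51 and 3.45 CPM and Il6 2.95 and 2.75 CPM, none called. These genes were picked from the list after their values were seen, while 14 of its 17 tested genes had a positive log2 fold change. The Il6 log2 fold change was -0.11, and it was 1.01 without EtOH replicates 3 and 4 and 0.19 without calcipotriol replicate 1. Il12b was at 0 counts in all 8 tumors.

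The other endogenous ligands of TLR4 or AGER numbered 10, all tested, with none called and a median of 0.16. Saa3, an acute-phase protein gene, was at 27.4, 24.97, 78.1 and 86.4 CPM with EtOH and at 56.1, 264, 294 and 156 CPM with calcipotriol. Calcipotriol replicate 1 lay inside the control range and the other 3 treated tumors above it (log2 fold change 1.83, SE 0.54, adjusted p = 0.102), and Saa3 was called without EtOH replicates 3 and 4 (log2 fold change 2.88, adjusted p = 0.0304) and with no filter on low counts (adjusted p = 0.0251). Without EtOH replicates 1 and 2 its log2 fold change was 1.23 (adjusted p = 0.256). The chaperone gene Hspa1a averaged 415 and 692 CPM (log2 fold change 0.74, adjusted p = 0.124), and S100b 126 and 92.2 CPM (log2 fold change -0.45, adjusted p = 0.337). The calprotectin genes S100a8 and S100a9, also neutrophil markers, had log2 fold changes of 0.47 and 0.48 with SEs of 0.55 and 0.50. Both directions depended on the controls kept, at 1.63 and 1.496 without EtOH replicates 1 and 2 and -0.16 and -0.12 without EtOH replicates 3 and 4, none called.

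Without calcipotriol replicate 1, 12 of the pathway genes were called, at a background of 4.33% of genes, and these were Tlr1, Tlr9, Ly86, Unc93b1, Cxcr4, Ticam2, Pik3ap1, Sigirr and Irf5, which were lower, and Saa3, Il10 and Nfkbiz, which were higher. In that fit Ly86 had a log2 fold change of -1.80 (adjusted p = 0.000445) and Unc93b1 of -1.58 (adjusted p = 0.000268). None of the 10 members was called in it, Tlr7 being at -1.25 (adjusted p = 0.0645), while Tlr2 (adjusted p = 0.0472) and Cd14 (-0.95, adjusted p = 0.0434) passed the adjusted p but not the fold threshold.

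The genes most like each member across the 8 tumors were found by the Pearson correlation of log2 CPM after each group's mean was subtracted, among 11490 protein-coding genes averaging 50 counts or more. They were Etaa1 (r = 0.996), Btbd10 and Zfp322a for Hmgb1, Zbtb38 (r = 0.966), AW554918 and Zfp182 for Tlr4, Tmem214 (r = 0.985), Tnks and Scaper for Tlr7, and Med29 (r = 0.985), Msr1 (r = 0.981) and Lamtor3 for Cd14. Msr1, 1 of the 3 genes given for Cd14, is a scavenger receptor gene of macrophages. Only Hmgb1, Tlr4, Tlr7 and Cd14 are shown here, and the highest r of each of the 10 members was 0.961 or more. With 8 tumors, 2 group means removed and shared libraries behind all values, these correlations are given as a description.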

How the data were processed

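Total RNA from the 8 tumors was sequenced after library preparation with a NEBNext Ultra kit, and the authors deposited expected counts per Ensembl gene, estimated and not normalized between tumors. The submitters' processing notes name STAR 2.5.3, RSEM 1.3.1, DESeq2 1.24.0 and GRCm38; the annotation release is not given in the sources used here. Between 4.2% and 6.22% of values per tumor were not whole, and all were rounded. Symbols and positions came from GENCODE M21, which matched 52081 of 55414 identifiers. The table held 0 columns of other samples.

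The fit over all genes was made with edgeR 4.0.16 under R 4.3.3 (filterByExpr, TMM, glmQLFit, glmQLFTest), with limma 3.58.1 (voom) and DESeq2 1.42.0 as alternatives. A call needed an adjusted p under 0.05 together with a log2 fold change of 1 or more in size. Scripts were tested on simulated data. The members, lists and marker genes were chosen with earlier results of these data known. Named genes are all members, list genes past both thresholds and otherwise up to 3 per list with the smallest p, the most abundant or called marker genes, and the 3 most like genes of Hmgb1, Tlr4, Tlr7 and Cd14. Tlr6, Tlr9, Tlr11, Tlr12, Hmgb4, Cxcl12, Ikbkg, Chuk, Nfkb1, Rela, Il1b, Tnf, Il6, Il12b, S100a8, S100a9, Trem1, Pik3ap1, Il10, Nos2, Cxcl1, Cxcl10, Ccl5, Ifnb1, Epcam, Krt18, Krt19, Cldn4, Mertk, Csf3r, Pdgfra, Lum, Dcn and the overlapping genes were added after their values were seen. Hmgb1 copies were found by aligning its 648-base reading frame. The fits without pairs of EtOH replicates, and those of the lists without calcipotriol replicate 1, were chosen after seeing the data.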

Additional observations from a re-analysis of the deposited data

Results flagged for a closer look

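A tumor was picked out where its gap to the nearest of its group was large for the group's range (Dixon's 95% critical value for 4 tumors). Of 66 groups examined over the members, the named pathway genes and the summed macrophage markers, 6 were picked out on the CPM scale and 3 of these also on the log2(CPM + 0.5) scale, where chance gives about 1 in 20, or 3.3. The first 3 below were picked out on both scales. Ager was at 4.37 CPM in calcipotriol replicate 6, with the other 3 treated tumors at or below 2.46 CPM. Ly96 was at 7.06 CPM in EtOH replicate 2, and no other control was above 4.23 CPM. Irf5 was at 31.8 CPM in calcipotriol replicate 1 against at most 12.2 CPM in the other treated tumors. On the CPM scale only, calcipotriol replicate 1 was picked out for Ly86 (46.1 CPM against at most 18.2 CPM in the other treated tumors), Unc93b1 (95.1 against at most 42.3 CPM) and Irf7 (103 against at most 30.5 CPM).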

How the results depend on the processing

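No paired analysis was made, since neither the labels nor the study's methods pair a treated tumor with a control. The total of 292 called genes became 458 with no filter on low counts, 644 with DESeq2, 177 without EtOH replicates 1 and 2, 605 without EtOH replicates 3 and 4, and 110 to 642 with a tumor left out, the highest without calcipotriol replicate 1 and at most 233 otherwise. The share of higher calls, 53.1% of the 292, was 37.5% without calcipotriol replicate 1 and 63.8% without EtOH replicates 1 and 2. The members called, 0 in the reported fit and 0 to 0 with a tumor left out, were 1 with DESeq2 (Tlr7), 2 without EtOH replicates 1 and 2 (Tlr2 and Cd14) and 1 without EtOH replicates 3 and 4 (Tlr7). The pathway genes called, 2 as reported, were 6 with no filter, 6 with DESeq2, 4 with no fold minimum, 1 without EtOH replicates 1 and 2, 7 without EtOH replicates 3 and 4, and 0 to 12 with a tumor left out. The members under an exact p of 0.05, 2 as reported, were 1 with library totals and 0 to 3 with a tumor left out. Among the members and the genes named by rule, signs turned for Hmgb1 (log2 fold change 0.038), Tlr4 (-0.031), Ly96 (-0.097) and Ager (-0.52) without EtOH replicates 3 and 4, and for S100b (0.090) without EtOH replicates 1 and 2. With a tumor left out they turned for Ager (-0.0036 to 1.68, negative without EtOH replicate 3), Tlr4 (-0.095 to 0.090, negative without EtOH replicate 2 or 4 or calcipotriol replicate 7) and Hmgb3 (-0.189 to 0.019, positive without calcipotriol replicate 1). Other genes named in the text turned too: S100a8, S100a9, Il6 and Acta1 without EtOH replicates 3 and 4, Tlr6, Krt19, Lum and Cxcl12 without EtOH replicates 1 and 2, Il6, Cxcl10, Ccl5, Nos2 and Cxcl12 without calcipotriol replicate 1, and Ccl5 with limma-voom. Causes were not tested. Of 150 refits of single members, 138 kept direction and side of the threshold. At 4 tumors a group the 95% intervals, among the members and other toll-like receptor genes tested, were widest for Ager (-1.87 to 2.70) and Tlr9 (-5.58 to 0.36).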
